A study of Arabidopsis thaliana with 8 samples.

Results

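The glucosinolate genes of Arabidopsis thaliana described here are 42 genes that make, modify, transport, regulate or hydrolyse these defence compounds. They were chosen by AGI locus code: the MYB regulators of aliphatic and indolic synthesis, the enzymes of chain elongation, core synthesis and side-chain modification, the GTR transporters, and the myrosinases TGG1 and TGG2. Of the 42, 36 had values in the expression table, out of 22281 genes with values in all. MYB76, MYB122, MAM3, CYP79F1, CYP79F2 and AOP2 were not analysed here. Of the 36, 24 had a mean of at least 1 FPKM over the 8 libraries and were tested, among 17706 genes tested in all. FPKM is the number of sequenced fragments scaled by transcript length and library total, so levels can be set side by side between genes.

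Poly-A RNA was measured in reproductive tissue of the Col-0 strain, collected to be rich in the meristems of inflorescences and flowers and in flowers no older than stage 8. The mutant group held 4 libraries of lsh1 lsh3 lsh4 plants (replicates 5 to 8), which carry mutations in 3 genes of the ALOG family of plant-specific nuclear proteins. The other group held 4 libraries of wild type plants (replicates 1 to 4). Both grew at 20 to 22 °C with 16 h light and 8 h dark. The sources used here give neither the alleles nor the age of the plants. Nothing in the labels ties each replicate to separate plants, so a p-value covers only the spread among these libraries, part of which may be technical. Read totals are unknown, and the library sums of 826022 to 906962 FPKM are not depths.

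Glucosinolates are sulfur-rich glucosides of the cabbage order. Aliphatic ones start from methionine, whose side chain is first lengthened in rounds of chain elongation, and indolic ones start from tryptophan. In both, cytochromes P450 of the CYP79 and CYP83 families, a glutathione transferase step, the peptidase GGP1, the lyase SUR1, glucosyltransferases and sulfotransferases build the core. Myrosinases are stored apart from the glucosinolates and release toxic products when tissue is damaged. Young inflorescences and seeds are among the organs that plants supply with these compounds, partly through the importers GTR1 and GTR2.

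Of the mutated genes, LSH4 and LSH1 were lower in every mutant library and LSH3 was not. LSH4 gave 3.79 to 7.25 FPKM in mutant libraries and 19.2 to 24.0 in wild type, a log2 fold change of -1.85, and LSH1 gave 2.20 to 4.26 FPKM in mutants and 7.38 to 11.9 in wild type, a log2 fold change of -1.53. Both fell by limma with Benjamini-Hochberg adjustment over all genes tested (adjusted p = 0.00773 for LSH4 and 0.0423 for LSH1). With each library left out in turn, LSH4 was called in 7 of 8 fits and LSH1 in 2, with limma adjusted p of up to 0.0626 and 0.158. Without wild type replicate 2, no gene at all was called. LSH4 and LSH1 are both listed as lower in the authors' deposited table, and LSH3 is not listed. It gives log2 fold changes of -2.0015 for LSH4 and -1.8136 for LSH1, with adjusted p of 1.134e-21 and 5.245e-09. LSH3 overlapped at 10.2 to 15.6 FPKM in mutants and 10.5 to 23.3 in wild type (log2 fold change -0.30, limma adjusted p = 0.607). Of 8 meristem and floral markers set against the tissue label, all had values. STM, LFY, AP1, AG, AP3 and PI were above the minimum level, while the stem cell genes WUS and CLV3 averaged 0.707 and 0.727 FPKM in mutants and 1.09 and 0.775 in wild type. STM, a shoot meristem gene, gave 62.1 to 69.0 FPKM in mutants and 76.8 to 98.6 in wild type, without overlap (log2 fold change -0.37, limma adjusted p = 0.145). The 6 tested markers had a median log2 fold change of -0.20 and 0 passed the test with limma. The direction rested on single libraries: without wild type replicate 4 the median was 0.04 and without mutant replicate 6 it was 0.13, with 4 of the 6 positive in each case. The authors' deposited table lists STM as lower (log2 fold change -0.38, adjusted p 0.00745). Of 5 late tapetum markers with values, AMS, A9 and CYP703A2 were listed at 0 in every mutant library and reached at most 0.499 FPKM in wild type. LAP6 gave 8.66 to 11.05 FPKM in mutants and 8.06 to 11.85 in wild type. TKPR1 gave 9.61 to 11.3 FPKM in mutants and 9.47 to 11.55 in wild type. The sum over the list was 18.5 to 21.6 FPKM in mutants and 18.8 to 22.3 in wild type.

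No glucosinolate gene passed the test across all genes, but most had higher average levels in the mutant. With limma and an adjusted p threshold of 0.05, 0 of 24 tested members were called, where 0.186% of all tested genes were called in either direction, 0.136% higher and 0.0508% lower. In single-gene terms (unadjusted p under 0.05), 9 of the 24 lay higher and 0 lay lower, where 6.91% and 5.62% of all tested genes were. The log2 fold change was positive in 19 of the 24, against 47.6% of all tested genes. Its median was 0.57 over the 24 and -0.01 over all tested genes, and 0.38 over the 24 without wild type replicate 4. The members were chosen with earlier results of these data known, so these shares describe the list and do not test it. In 5 of the 24, SOT18, SUR1, CYP83B1, FMO GS-OX5 and GTR2, every mutant library was above every wild type library, as in 4.15% of all tested genes. With limma's library weights, 6 of the 24 were called higher (MYB28, SOT17, SOT18, SUR1, FMO GS-OX5 and GTR2) and GSTU20 lower. In that fit 13.1% of all 17706 tested genes were called in either direction, 1265 higher and 1058 lower. In 0 of the 24 was every mutant library below, as in 3.74% of all tested genes. MYB29, too low to be tested, was also above in every mutant library, as in 3.93% of all genes with values. The authors' deposited table of differential genes lists 6 members, all higher in the mutant, MYB29, SOT17, SOT18, SUR1, FMO GS-OX5 and GTR2. That table holds 2.41% of the roughly 20096 genes the authors tested as higher and 1.68% as lower. These libraries are bulk tissue, in which fewer cells of a type and less RNA per cell cannot be told apart.

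**Figure D1:**
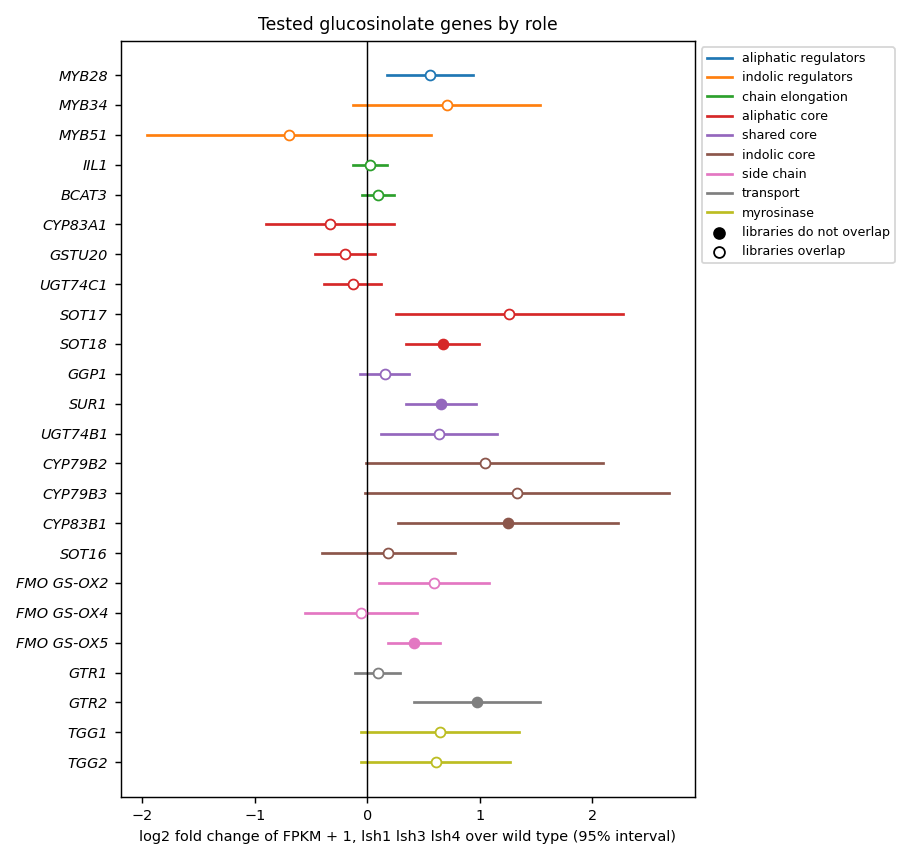
Log2 fold change of FPKM + 1, lsh1 lsh3 lsh4 over wild type, for the 24 tested members, ordered and coloured by role. Points are limma estimates from 4 libraries per genotype, lines are 95% intervals, and filled points mark the 5 genes whose libraries did not overlap. Points right of 0 were higher in the mutant, and they hold 19 of the 24 genes, with CYP79B3, SOT17 and CYP83B1 farthest right.

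The 6 genes whose libraries did not overlap, MYB29 included, are shown here by the 250 bases before their annotated gene start, since they separate the genotypes by every library. Sequences and positions are RefSeq's, assembly TAIR10.1, each written 5′ to 3′ on the strand of its gene. The deposited values were made on TAIR10 and carry no coordinates, so genes were matched by locus code, which succeeded for all 42 members. Capitals mark matches on either strand to the G-box CACGTG, which MYC proteins bind, or to CACTGTA, a word described for ALOG proteins, also with T as its first letter, its last letter or both. The windows are chr5:2446419-2446668 (plus strand) for MYB29, chr1:27862564-27862813 (plus strand) for SOT18, chr2:8880441-8880690 (minus strand) for SUR1, chr4:15275405-15275654 (minus strand) for CYP83B1, chr1:4121035-4121284 (plus strand) for FMO GS-OX5 and chr5:25168061-25168310 (minus strand) for GTR2.
MYB29: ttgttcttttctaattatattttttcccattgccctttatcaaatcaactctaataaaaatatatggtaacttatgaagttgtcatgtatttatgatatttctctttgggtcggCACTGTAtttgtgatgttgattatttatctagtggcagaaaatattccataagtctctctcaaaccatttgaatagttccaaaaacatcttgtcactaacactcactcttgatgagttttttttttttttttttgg
SOT18: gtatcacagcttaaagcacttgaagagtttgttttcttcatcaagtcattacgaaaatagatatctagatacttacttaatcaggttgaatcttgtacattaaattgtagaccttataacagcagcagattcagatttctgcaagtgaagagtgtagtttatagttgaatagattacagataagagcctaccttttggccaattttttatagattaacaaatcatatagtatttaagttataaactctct
SUR1: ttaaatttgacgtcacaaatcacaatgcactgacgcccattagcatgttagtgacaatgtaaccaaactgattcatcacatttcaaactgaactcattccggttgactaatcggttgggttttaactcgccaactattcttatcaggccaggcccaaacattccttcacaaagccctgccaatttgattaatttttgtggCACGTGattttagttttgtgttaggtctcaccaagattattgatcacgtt
CYP83B1: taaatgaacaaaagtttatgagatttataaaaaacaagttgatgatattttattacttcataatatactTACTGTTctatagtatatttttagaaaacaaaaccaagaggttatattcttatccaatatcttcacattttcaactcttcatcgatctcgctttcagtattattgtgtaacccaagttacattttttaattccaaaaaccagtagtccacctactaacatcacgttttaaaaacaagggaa
FMO GS-OX5: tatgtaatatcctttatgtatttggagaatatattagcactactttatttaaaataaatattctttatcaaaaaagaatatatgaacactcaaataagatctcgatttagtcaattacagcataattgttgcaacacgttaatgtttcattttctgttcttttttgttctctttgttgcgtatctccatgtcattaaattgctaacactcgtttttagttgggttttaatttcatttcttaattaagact
GTR2: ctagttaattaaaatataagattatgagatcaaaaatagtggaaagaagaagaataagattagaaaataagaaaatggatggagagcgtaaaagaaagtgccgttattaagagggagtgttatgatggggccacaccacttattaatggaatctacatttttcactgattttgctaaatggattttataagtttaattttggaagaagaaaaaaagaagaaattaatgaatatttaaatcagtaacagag

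MYB29 held CACTGTA 136 to 130 bases before its start, and CYP83B1 held TACTGTT 181 to 175 bases before. SUR1 held the G-box 50 to 45 bases before its start. The windows of SOT18, FMO GS-OX5 and GTR2 held none of these letters. Over the 36 members with values, 6 windows (16.7%) held an ALOG-type motif and 3 (8.33%) the G-box. Over the same windows of all 22152 protein-coding genes with values, the shares were 11.4% and 7.28%. The other ALOG-type matches were before GSTF11, GSTU20, CYP79B2 and CYP81F2, and the other G-boxes before IIL1 and CYP83A1. A match is a run of letters, and no binding was measured.

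The aliphatic regulators with values were both on average higher in the mutant. MYB28 (AT5G61420), the main activator of aliphatic synthesis, gave 15.9, 22.6, 18.8 and 14.4 FPKM in mutant replicates 5 to 8, against 14.7, 9.61, 13.0 and 10.2 in wild type replicates 1 to 4. Only mutant replicate 8 fell within the wild type range, just under wild type replicate 1. The log2 fold change was 0.55 ± 0.17 (SE, n = 4 per genotype, limma adjusted p = 0.234). MYB29 (AT5G07690), its close relative with a supporting role, gave 0.389, 0.338, 0.375 and 0.462 FPKM in mutants, against 0.162, 0.0978, 0.154 and 0.101 in wild type. Its mean was 0.391 ± 0.0522 FPKM in mutants and 0.129 ± 0.0340 in wild type (SD, n = 4 each), both far under the minimum. Fitted without a minimum level, its log2 fold change was 0.30 (limma adjusted p = 0.0804). The authors' deposited table gives MYB29 a log2 fold change of 1.62 and an adjusted p of 0.0463.

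The indolic regulators differed from each other. MYB34 (AT5G60890), which activates indolic synthesis and tryptophan supply, gave 8.84, 3.85, 5.22 and 14.6 FPKM in mutant replicates 5 to 8, against 2.91, 4.23, 3.27 and 6.54 in wild type. Its highest value was in mutant replicate 8 and the genotypes overlapped (log2 fold change 0.70 ± 0.36 SE, limma adjusted p = 0.467, and 0.40 without mutant replicate 8). MYB51 (AT1G18570), the indolic activator of leaves that responds to wounding and pathogens, gave 0.896, 0.741, 1.27 and 0.846 FPKM in mutants, against 8.07, 3.66, 0.765 and 0.277 in wild type. It passed the minimum only through the wild type, where replicates 1 and 2 were high and replicates 3 and 4 were at or below the mutant level. Its log2 fold change was -0.70 (limma adjusted p = 0.633) and -0.18 without wild type replicate 1.

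Chain elongation was nearly silent apart from enzymes shared with leucine synthesis. Of 8 genes with values, 6 averaged under 1 FPKM. BCAT4, the aminotransferase that opens methionine elongation, was listed at 0 in 2 mutant libraries and in all 4 wild type libraries, and its highest value was 0.0286 FPKM. MAM1, the condensing enzyme, gave 0.108 to 0.796 FPKM in mutants and 0.135 to 0.199 in wild type. BAT5, the plastid transporter of the elongated acids, gave 0.282 to 0.828 in mutants and 0.436 to 0.605 in wild type. IPMI2 and IPMI1, small isomerase subunits, and IMD1, a dehydrogenase of the cycle, also stayed under the minimum. IPMI2 reached 1.68 FPKM and IMD1 2.10 FPKM in mutant replicate 8, against 0.148 and 0.540 at most in the other mutants and 0.134 and 0.263 at most in wild type.

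Both chain elongation genes above the minimum differed little. IIL1 (AT4G13430), the large isomerase subunit that also serves leucine synthesis, gave 135.6, 145.2, 140.4 and 123.9 FPKM in mutants, against 134.9, 133.5, 136.3 and 130.2 in wild type. The wild type values lay within the mutant range (log2 fold change 0.02, 95% interval -0.12 to 0.17). BCAT3 (AT3G49680), a plastid aminotransferase active in both pathways, gave 60.9, 65.4, 66.2 and 68.7 FPKM in mutants, against 58.5, 64.0, 59.0 and 63.1 in wild type. That is a log2 fold change of 0.09, with an interval of -0.05 to 0.24.

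In the aliphatic core, CYP83A1, GSTU20 and UGT74C1 averaged lower and SOT17 and SOT18 averaged higher in the mutant, and none passed the test. CYP83A1 (AT4G13770), which oxidises the aldoximes of elongated methionine, averaged 1.70 ± 0.650 FPKM in mutants and 2.40 ± 0.866 in wild type (SD, n = 4 each). On average it differed by -0.34 on the log2 scale (limma adjusted p = 0.606). GSTU20 (AT1G78370), a glutathione transferase of the pathway, gave 196, 209, 219 and 254 FPKM in mutants, against 241, 275, 211 and 284 in wild type, with a log2 fold change of -0.20 (limma adjusted p = 0.512). UGT74C1, an aliphatic glucosyltransferase, had a log2 fold change of -0.13 (limma adjusted p = 0.653). GSTF11, another glutathione transferase, was at most 0.459 FPKM in mutants and 0.364 in wild type. In GSTU20 and UGT74C1 the genotypes overlapped broadly.

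SOT17 and SOT18, the sulfotransferases that complete aliphatic glucosinolates, had higher averages in the mutant. SOT18 (AT1G74090) gave 11.6, 9.37, 10.7 and 15.9 FPKM in mutants, against 7.12, 6.57, 7.09 and 7.11 in wild type. The wild type libraries were almost equal and every mutant library lay above them (log2 fold change 0.67 ± 0.14 SE, limma adjusted p = 0.122). SOT17 (AT1G18590) gave 4.26, 2.37, 3.46 and 15.0 FPKM in mutants, against 1.07, 1.53, 1.13 and 2.43 in wild type. Mutant replicate 8 stood far above the others, and mutant replicate 6 was just under wild type replicate 4. Its log2 fold change was 1.26 ± 0.44 SE (limma adjusted p = 0.303), and 0.78 without mutant replicate 8. The authors' deposited table gives log2 fold changes of 2.02 for SOT17 and 0.77 for SOT18, with adjusted p of 0.00983 and 0.0024.

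Of the enzymes common to aliphatic and indolic synthesis, SUR1 separated the genotypes in every library. SUR1 (AT2G20610), the carbon-sulfur lyase whose loss raises auxin, gave 44.8, 39.1, 38.5 and 56.7 FPKM in mutants, against 24.3, 32.5, 26.5 and 28.2 in wild type. It had the smallest adjusted p of the 24 (log2 fold change 0.65 ± 0.14 SE, 95% interval 0.35 to 0.96, limma adjusted p = 0.114). The authors' deposited table gives SUR1 a log2 fold change of 0.68 and an adjusted p of 0.00132. UGT74B1 (AT1G24100), the next enzyme, a glucosyltransferase, gave 42.8, 31.8, 32.2 and 62.0 FPKM in mutants, against 23.7, 28.6, 20.0 and 32.6 in wild type. Its mutant replicates 6 and 7 fell just below wild type replicate 4 (log2 fold change 0.64 ± 0.23 SE, limma adjusted p = 0.307). GGP1 (AT4G30530), which trims the glutathione conjugate before SUR1 acts, gave 75.7, 73.0, 82.0 and 99.2 FPKM in mutants, against 73.5, 76.6, 70.8 and 73.2 in wild type. Its log2 fold change was 0.15 (limma adjusted p = 0.541), and 0.06 without mutant replicate 8.

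The indolic core had a median log2 fold change of 1.15 and a wide spread among mutant libraries. Without mutant replicate 8 the median was 0.67, and with library weights it was 0.60. CYP83B1 (AT4G31500), which oxidises the tryptophan-derived aldoxime and thereby takes it from auxin synthesis, gave 43.3, 29.6, 33.9 and 94.2 FPKM in mutants, against 13.8, 28.9, 9.94 and 28.2 in wild type. Mutant replicate 6 was barely above wild type replicate 2, so the absence of overlap rests on a small gap (log2 fold change 1.25 ± 0.43 SE, 95% interval of 0.27 to 2.23, limma adjusted p = 0.294). The change of CYP83B1 was 0.53 with library weights and 0.78 with the mean of a touch and early stress list, described further on, as a covariate chosen after seeing the data. CYP79B2 (AT4G39950), which makes that aldoxime, gave 4.62, 1.07, 2.77 and 9.77 FPKM in mutants, against 0.866, 1.44, 0.730 and 2.32 in wild type. Its near-duplicate in function, CYP79B3 (AT2G22330), gave 3.70, 0.979, 2.53 and 17.4 in mutants, against 0.623, 0.959, 0.741 and 1.72 in wild type. Both overlapped through mutant replicate 6 (log2 fold changes 1.04 and 1.33, limma adjusted p = 0.404 and 0.405). Without mutant replicate 8 these became 0.64 and 0.70. SOT16 (AT1G74100), the indolic sulfotransferase, gave 45.2, 37.7, 44.7 and 81.4 FPKM in mutants, against 55.9, 54.2, 31.8 and 38.0 in wild type. The log2 fold change was 0.19 (limma adjusted p = 0.798), and -0.05 without mutant replicate 8 or -0.15 with library weights.

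**Figure D2:**
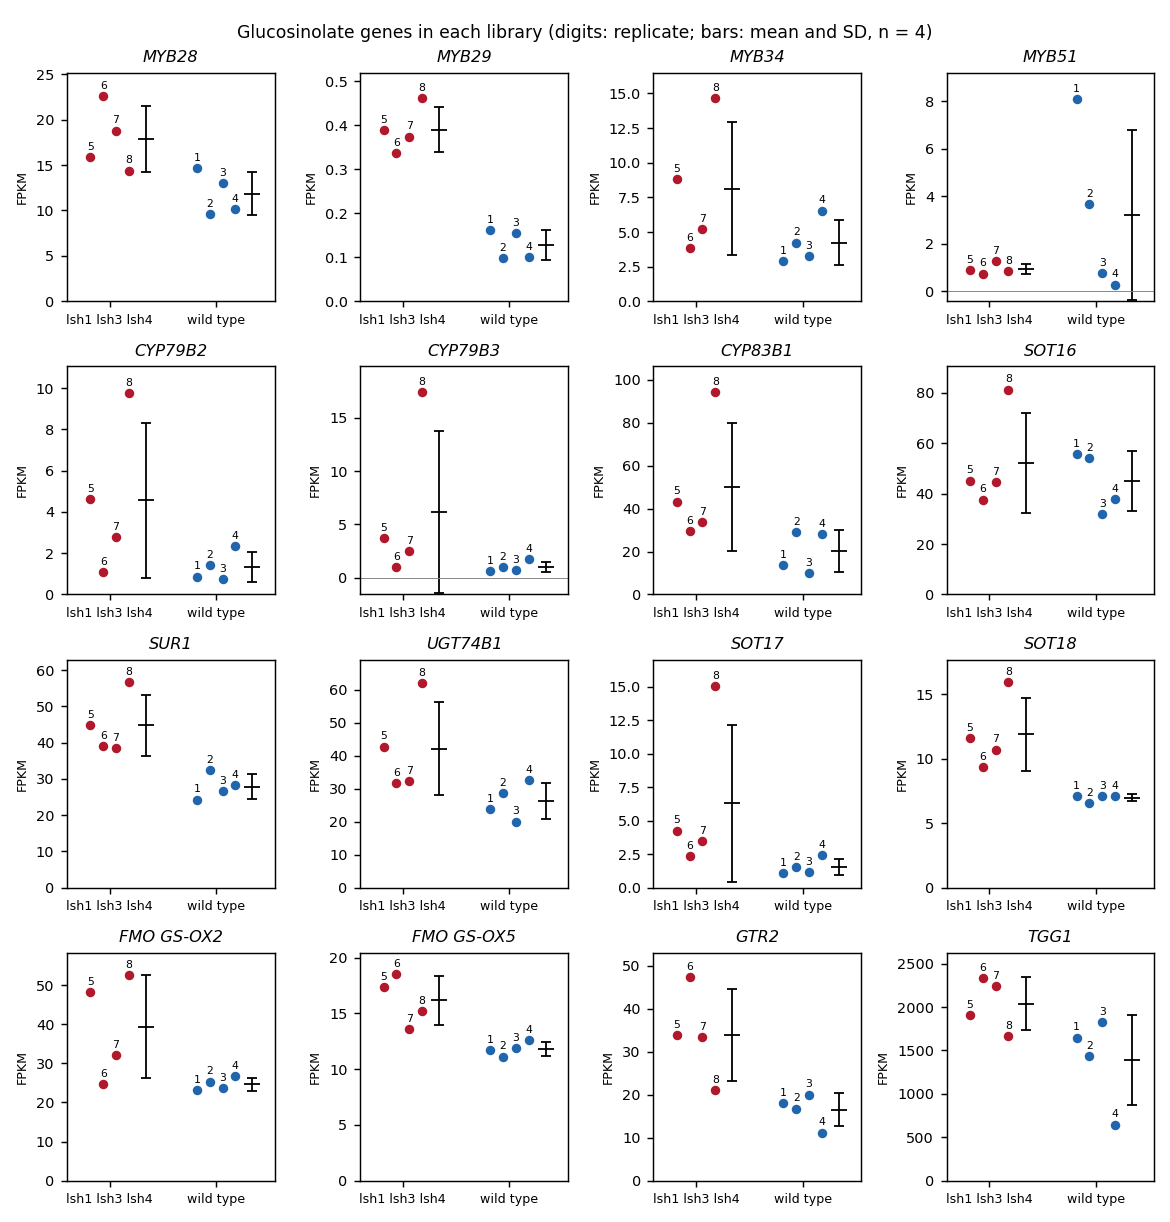
FPKM of 16 glucosinolate genes in each library, with the lsh1 lsh3 lsh4 libraries (red, 5 to 8) left of the wild type libraries (blue, 1 to 4). Bars are the mean and SD of 4 libraries, and the vertical axis is linear with its own scale for each gene. In CYP79B2, CYP79B3, CYP83B1, SOT16, MYB34 and SOT17 mutant replicate 8 is the top point and replicate 6 the lowest mutant point, while in GTR2 and TGG1 replicate 6 is the top point.

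Side-chain modification was represented mainly by S-oxygenases. FMO GS-OX5 (AT1G12140), an S-oxygenase that acts on long-chain aliphatic glucosinolates, gave 17.4, 18.6, 13.6 and 15.2 FPKM in mutants, against 11.7, 11.1, 11.9 and 12.6 in wild type. All mutant libraries lay above all wild type libraries (log2 fold change 0.41 ± 0.10 SE, limma adjusted p = 0.166). The authors' deposited table gives FMO GS-OX5 a log2 fold change of 0.45 and an adjusted p of 0.0203. FMO GS-OX2 (AT1G62540), the most abundant of the family here, gave 48.2, 24.8, 32.1 and 52.4 FPKM in mutants, against 23.1, 25.3, 23.7 and 26.7 in wild type. Mutant replicates 5 and 8 were high and replicate 6 lay inside the narrow wild type range (log2 fold change 0.59 ± 0.22 SE, limma adjusted p = 0.315). FMO GS-OX4 averaged 7.19 ± 1.68 FPKM in mutants and 7.60 ± 2.28 in wild type (SD, n = 4 each). FMO GS-OX1 and FMO GS-OX3 averaged 0.0400 and 0.819 FPKM in mutants and 0.00813 and 0.627 in wild type. AOP3, which makes hydroxyalkyl glucosinolates in other accessions, was at most 0.0163 FPKM in mutants and 0.0312 in wild type. CYP81F2, which hydroxylates the indole ring, gave 0.232, 0.640, 0.199 and 0 FPKM in mutants, against 1.60, 0.524, 0.279 and 0.165 in wild type.

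Of the transporters, GTR2 was higher in every mutant library and GTR1 was not. GTR2 (AT5G62680), a proton-coupled importer that loads glucosinolates into the phloem, gave 33.95, 47.4, 33.5 and 21.1 FPKM in mutants, against 18.1, 16.8, 20.0 and 11.2 in wild type. Mutant replicate 8 was the lowest mutant library and still just above wild type replicate 3. The log2 fold change was 0.97 ± 0.25 SE (95% interval 0.41 to 1.53, limma adjusted p = 0.176), and 0.80 to 1.17 with each library left out in turn. The authors' deposited table gives GTR2 a log2 fold change of 1.04 and an adjusted p of 0.00246. GTR1 (AT3G47960), the related importer, gave 25.4, 26.5, 22.6 and 26.0 FPKM in mutants, against 25.9, 25.3, 21.3 and 21.9 in wild type. Its log2 fold change was 0.09, with a 95% interval of -0.11 to 0.29 that lies below that of GTR2. The difference between the 2 genes was not tested. Of 3 phloem markers, SUC2, APL and SEOR1, 0 passed the test, their median log2 fold change was 0.13, and they summed to 55.4 to 78.4 FPKM in mutants and 52.3 to 65.97 in wild type.

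The myrosinases TGG1 and TGG2, which split glucosinolates in myrosin cells and guard cells, were among the most abundant transcripts, at ranks 20 and 21 of all genes by mean FPKM. TGG1 (AT5G26000) gave 1908, 2333, 2245 and 1667 FPKM in mutants, against 1647, 1431, 1824 and 647 in wild type. TGG2 (AT5G25980) gave 1885, 2206, 2164 and 1749 FPKM in mutants, against 1608, 1435, 1869 and 676 in wild type. Wild type replicate 4 was far below the rest in both genes, and the genotypes overlapped through wild type replicate 3. The log2 fold changes were 0.65 and 0.61 (limma adjusted p = 0.435 and 0.437), and 0.31 and 0.29 without wild type replicate 4. Together the pair took 0.412% to 0.504% of all FPKM in mutants and 0.155% to 0.415% in wild type. Their ratio, TGG1 over TGG2, was 0.953 to 1.06 in mutants and 0.957 to 1.025 in wild type. Their coding sequences share 0.38% of 50-base windows and a longest common run of 55 bases. FAMA, the regulator that specifies myrosin cells and guard cells, gave 11.5 to 16.6 FPKM in mutants and 8.74 to 17.5 in wild type (log2 fold change 0.09, limma adjusted p = 0.883).

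Among the mutant libraries, the indolic core genes were ordered like the floral organ genes AG, AP3 and PI and like a jasmonate list. The 4 indolic core genes were all highest in mutant replicate 8 and lowest in mutant replicate 6. Their mean log2(FPKM + 1) was 3.93, 3.06, 3.59 and 5.14 in mutant replicates 5 to 8, against 2.83, 3.24, 2.52 and 3.33 in wild type replicates 1 to 4. The floral organ genes AG, AP3 and PI, 3 of the 8 meristem and floral markers above, mark floral organs that have begun to form. They averaged 4.79, 3.504, 4.01 and 5.65 on that scale in mutants, against 3.85, 4.89, 4.40 and 5.53 in wild type. Both sets thus put the mutant libraries in the order 8, 5, 7, 6. AP3 shared that order with 9 of the 24 members (37.5%) and 13.5% of all tested genes. Among the other tested markers of the 8, AP1 also gave it, while STM gave 8, 6, 7, 5 and LFY gave 5, 8, 7, 6. In wild type the orders differed, 4, 2, 1, 3 for the indolic core and 4, 2, 3, 1 for the floral genes. A jasmonate list, described further on, averaged 5.23, 4.59, 5.01 and 5.64 in mutants and 4.60, 4.73, 4.16 and 4.49 in wild type. That is 8, 5, 7, 6 in mutants as well, and 2, 1, 4, 3 in wild type. MYB34, SOT17, CYP79B3 and FMO GS-OX2 followed AP3 through the order of all libraries in both genotypes, 4 of 24 (16.7%) against 2.59% of all tested genes. The 3 floral genes themselves had log2 fold changes of -0.13 to -0.21. With their mean level as a covariate in limma, a term chosen after seeing the data, 10 of the 24 members rose, where 2.16% of all 17706 tested genes were called (257 higher and 125 lower). These were MYB28, MYB34, SOT17, SOT18, SUR1, UGT74B1, CYP79B2, CYP83B1, FMO GS-OX2 and GTR2, with log2 fold changes of 0.50 to 1.40 and adjusted p of 0.0157 to 0.0425. Why the libraries differ in these genes was not tested.

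The myrosinases, GTR2, IIL1 and FMO GS-OX4 were instead lowest in mutant replicate 8 and wild type replicate 4. Of all tested genes, 35% were lowest of the mutant libraries in replicate 8, and 27.9% were lowest of the wild type libraries in replicate 4. All 6 xylem and stem markers, CESA4, CESA7, CESA8, XCP1, XCP2 and VND7, were lowest in both, and all had values above the minimum. Those markers summed to 158.3, 212.7, 167.1 and 106.9 FPKM in mutants, against 151.9, 110.9, 162.6 and 73.0 in wild type. All 6 had positive log2 fold changes, with a median of 0.35, and 0 passed the test. Without wild type replicate 4 the median was 0.16, with 5 of the 6 positive. IIL1, TGG1 and TGG2 followed XCP1 through the order of all libraries in both genotypes, 3 of 24 (12.5%) against 2.67% of all tested genes. GTR2 shared the order of XCP1 in wild type only. Green tissue markers shared the direction of change: 14 of 14 had positive log2 fold changes, with a median of 0.36, and 0 passed the test. Their lowest libraries mostly differed. Among mutants, 9 of the 14 were lowest in replicate 5 and 2 in replicate 8. In wild type, 8 were lowest in replicate 2 and 6 in replicate 4. At an unadjusted p under 0.05, 7 of these 14 were higher, where 6.91% of all tested genes were. They summed to 15800 to 20160 FPKM in mutants and 11440 to 18000 in wild type, and none was at 0. With the xylem and stem mean as a covariate, likewise chosen after seeing the data, 1 of the 24 rose, CYP83B1 (log2 fold change 1.79, limma adjusted p = 0.0498), where 0.265% of all 17706 tested genes were called (31 higher and 16 lower). In that fit the median log2 fold change of TGG1 and TGG2 was 0.25. The part of stem or green tissue in the results for TGG1, TGG2 and GTR2 was not tested.

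**Figure D3:**
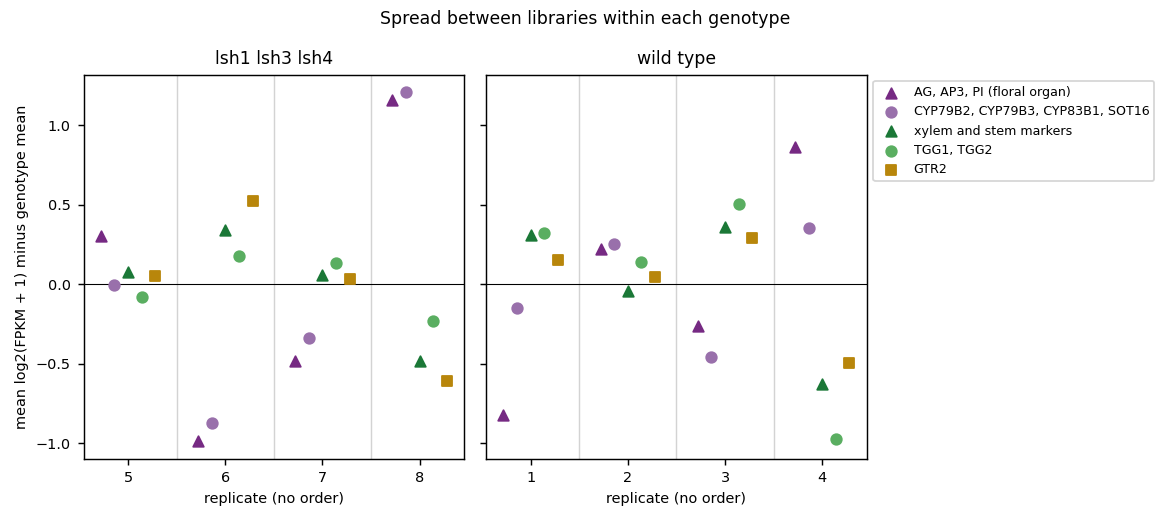
Deviation of mean log2(FPKM + 1) from the mean of the same genotype, by library, for the lsh1 lsh3 lsh4 libraries (left) and the wild type libraries (right). Circles are glucosinolate groups, triangles are marker lists and squares are GTR2, and replicates have no order. In mutant replicate 8 the indolic core and the floral organ genes are both above 0, while the myrosinases, GTR2 and the xylem and stem markers are below 0.

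MYB51, CYP81F2, CYP83A1 and FMO GS-OX4 were ordered among wild type libraries like a touch and early stress list. This list holds rapidly induced transcripts such as ZAT12, ZAT10, CBF2, TCH2 and WRKY40, and all 13 had values. Of its 11 tested genes, CBF2, WRKY40 and RRTF1 passed the minimum only through the wild type, so their direction was fixed by that filter. The other 8 had a median log2 fold change of -1.73, 0 of the 11 passed the test with limma, and the median of all 11 was -1.78, or -1.10 without wild type replicate 1. The authors' deposited table lists 7 of the 11, CBF2 and WRKY40 among them, all as lower. It holds 1.68% of all genes the authors tested as lower. The list summed to 185.2, 202.2, 168.0 and 85.1 FPKM in mutants, against 1522, 659.5, 303.2 and 129.1 in wild type. All 11 were highest of the wild type libraries in replicate 1 and lowest in replicate 4. Of all tested genes, 28% were highest of the wild type libraries in replicate 1 and 27.9% were lowest in replicate 4. For the 24 tested members the shares were 29.2% and 33.3%. Among wild type libraries MYB51, CYP81F2, CYP83A1 and FMO GS-OX4 were also highest in replicate 1 and lowest in replicate 4. So was PEN2, an atypical myrosinase of pathogen defence, with 10.3, 8.30, 9.10 and 10.8 FPKM in mutants and 57.4, 33.1, 11.5 and 7.96 in wild type. PEN3, the transporter that acts with PEN2, gave 48.6, 47.5, 43.7 and 42.8 FPKM in mutants, against 191, 120.9, 41.8 and 33.6 in wild type. MYC2, a jasmonate regulator that works with the glucosinolate MYBs, gave 32.2, 21.8, 32.4 and 40.1 FPKM in mutants, against 95.6, 29.8, 29.3 and 21.8 in wild type. The part of handling or stress in these values was not tested.

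**Figure D4:**
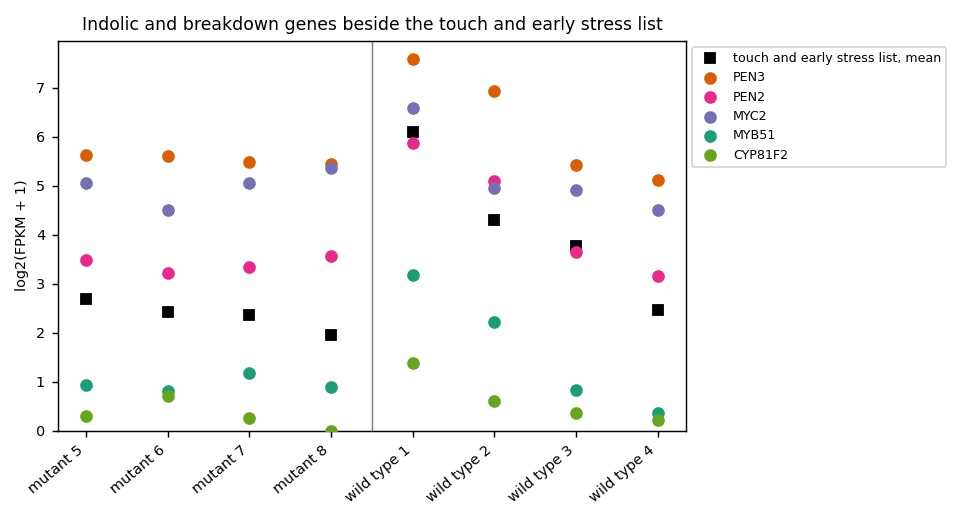
Log2(FPKM + 1) of MYB51, CYP81F2, PEN2, PEN3 and MYC2 and the mean of the 11 tested touch and early stress genes (black squares) in each library, lsh1 lsh3 lsh4 left of the line and wild type right of it. All are highest in wild type replicate 1, and among wild type libraries all are lowest in replicate 4.

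Genes of jasmonate response and sulfur shortage, states in which glucosinolate synthesis is known to change, were also examined. Of 13 jasmonate genes, 12 had positive log2 fold changes, against 47.6% of all tested genes, the median was 0.73, and 1 rose, where 0.136% of all tested genes did. That gene was JAZ9, a repressor of jasmonate signalling, with 163.9, 122.3, 132.6 and 188.5 FPKM in mutants, against 35.4, 60.0, 45.8 and 68.5 in wild type (log2 fold change 1.54, limma adjusted p = 0.0425). The genotypes did not overlap, but the call was lost in each of the 8 fits that leave out a library (limma adjusted p of 0.0512 to 0.162). The authors' deposited table lists JAZ9 (log2 fold change 1.53, adjusted p 2.37e-09), JAZ2 and JAZ6, all as higher. It holds 2.41% of all genes the authors tested as higher. At an unadjusted p under 0.05 by limma, 6 of the 13 (46.2%) were higher, where 6.91% of all tested genes were. In 4 of the 13 (30.8%) every mutant library was above every wild type library, as in 4.15% of all tested genes. The list summed to 909 to 2438 FPKM in mutants and 596 to 921 in wild type, and 11 of its 13 genes were highest among mutants in replicate 8. Of 7 low-sulfur genes, LSU1 and SULTR2;1 passed the minimum only through the mutant, which fixed their direction. The other 5 had a median log2 fold change of 0.85, and 0 of these 5 were called. SULTR2;1, a sulfate transporter of vascular tissue, gave 4.06, 5.58, 5.57 and 6.63 FPKM in mutants, against 1.03, 0.776, 0.895 and 0.451 in wild type (log2 fold change 1.85, limma adjusted p = 0.00971). Its call held in 5 of 8 fits that leave out a library, with limma adjusted p of up to 0.0708. Because the minimum fixed its direction, this call is no evidence that the low-sulfur list rose. SDI1, a sulfur-deficiency protein that restrains aliphatic synthesis, gave 17.7, 11.2, 18.4 and 5.44 FPKM in mutants, against 0.895, 2.24, 7.44 and 2.92 in wild type (log2 fold change 1.78, limma adjusted p = 0.191). Of the 7 low-sulfur genes, the authors' deposited table lists SDI1 and SULTR2;1, both as higher (log2 fold changes 1.97 and 2.80, adjusted p 0.0136 and 6.14e-22). The low-sulfur list summed to 89.6 to 160.3 FPKM in mutants and 54.6 to 130.6 in wild type. Across both lists and the glucosinolate genes, the part of one in another was not tested.

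Further genes of the pathway gave no call. Of 27 related genes, such as the MYC partners, the IGMT methyltransferases of indolic products, the kinases APK1 and APK2 that supply activated sulfate, and the CYP81F hydroxylases, 19 were tested. Of these, 11 had positive log2 fold changes, the median was 0.08, 0 were called by limma, and at an unadjusted p under 0.05, 2 (10.5%) were higher, against 6.91% of all tested genes. IGMT3, 1 of the 11, passed the minimum only through the mutant, which fixed its direction, and the median of the other 18 was 0.04. Leaving out wild type replicate 4 made the median of all 19 -0.03, and leaving out wild type replicate 1 made it 0.20. The 2 genes were CYP81F1, a hydroxylase of indolic glucosinolates, with a log2 fold change of 0.40 (limma adjusted p = 0.246), and MYC4, with 0.26 (limma adjusted p = 0.393). The authors' deposited table lists 0 of them. APK2 gave 12.5, 7.85, 8.64 and 46.2 FPKM in mutants, against 8.05, 11.98, 3.15 and 11.1 in wild type, again with mutant replicate 8 far above the rest. The 3 camalexin genes with values, from the phytoalexin branch of the indolic pathway, were all under the minimum.

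Of 16 genes that direct breakdown or mark myrosin cells, 12 had values and 10 were tested. Of the 10, 3 had positive log2 fold changes, the median was -0.30, 0 were called by limma and, at an unadjusted p under 0.05, 2 (20.0%) were higher, against 6.91% of all tested genes. The median was -0.43 to -0.11 with each library left out, 0.01 without wild type replicates 1 and 2, and 0.09 with the touch and early stress covariate. ESP, which turns the myrosinase product towards nitriles, gave 39.4, 12.4, 28.7 and 58.7 FPKM in mutants, against 3.35, 8.78, 11.6 and 16.1 in wild type. Only mutant replicate 6 lay within the wild type range (log2 fold change 1.68 ± 0.52 SE, limma adjusted p = 0.243). ESM1, which favours isothiocyanates over nitriles, gave 117.0, 72.3, 140.1 and 318.5 FPKM in mutants, against 26.2, 43.1, 81.8 and 66.02 in wild type (log2 fold change 1.47 ± 0.47 SE, limma adjusted p = 0.260). Mutant replicate 6 again lay within the wild type range. MBP1 and MBP2, myrosinase-binding proteins, had log2 fold changes of -0.78 and -0.45 and spread widely, with MBP2 at 72.8 to 587.9 FPKM in mutants and 161.5 to 406.0 in wild type. PYK10, a glucosidase of endoplasmic reticulum bodies, gave 0.178 to 0.514 FPKM in mutants and 0 to 0.0879 in wild type. The authors' deposited table gives PYK10 a log2 fold change of 2.96 and an adjusted p of 0.0192.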

How the data were processed

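The members and the gene lists were chosen with earlier results of these data known. In the deposited expression table, each gene has an FPKM value for each of 8 libraries. The build was TAIR10 and the tools were RSEM and DESeq2, per the submitters' processing notes and without versions, and the sources used here name no aligner, annotation or filter. FPKM is scaled by gene length and by library total, so abundant genes can shift the others and depth is lost. No read counts were used, and the error of low genes is therefore unknown.

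A second deposited table holds the authors' differential genes, with log2 fold changes of mutant over wild type beside raw and adjusted p-values, per the file headers. Its 825 rows cover 822 genes, with a largest adjusted p of 0.0499. The roughly 20096 genes tested were taken from its ratio of adjusted to raw p.

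The limma package 3.58.1, in R 4.3.3, was run on log2(FPKM + 1) for the 2 genotypes (mean-variance trend, prior degrees of freedom 2.67, 2-sided) over 17706 genes with a mean of at least 1 FPKM. P-values were adjusted by Benjamini-Hochberg over all of them, with a threshold of 0.05. Fold changes on this scale understate those of low genes. The code was tested on simulated data. Libraries were grouped by their titles. Values per library are given for members that were called or did not overlap and, in each role, for the one with the highest mean and the one with the smallest p. MYB29, MYB34, MYB51, SOT17, UGT74B1, CYP79B2, CYP79B3, CYP81F2, GTR1, TGG2, PEN2, PEN3, MYC2, APK2, SDI1 and the called state genes were added after their values were seen. Lists were described by counts and medians. Coding overlap and promoter windows were read from RefSeq. Alternatives were pseudocounts of 0.1 and 0.5, no minimum, a minimum of 5, scaling to TPM, by quantiles or by median of ratios, library weights, robust moderation, thresholds of 0.10 and 0.01 and leaving out each library. Marker covariates and leaving out wild type replicates 1 and 2 together were chosen after seeing the data. Plots used matplotlib 3.10.9 in Python 3.11.15.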

Additional observations from a re-analysis of the deposited data

Results flagged for a closer look

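In groups of 4 libraries, a library was listed where its gap to the nearest library exceeded Dixon's 95% critical value as a share of the group's range. This held for 3 of 48 groups, where chance gives about 1 in 20, or 2.4 groups. SOT17 stood at 15.03 FPKM in mutant replicate 8, against 2.37 to 4.26 FPKM in the other mutant libraries. CYP79B3 stood at 17.41 FPKM in mutant replicate 8, against 0.979 to 3.70 FPKM in the other mutant libraries. SOT18 stood at 6.568 FPKM in wild type replicate 2, slightly under the 7.09 to 7.12 FPKM of the other wild type libraries. Mutant replicate 8 also had the most genes listed at 0 (2461, against 1362 to 1884 in the other mutants and 1233 to 1755 in wild type) and was the highest mutant library for 13 of the 24 tested members (54.2%, against 34.2% of all tested genes). The part of that library's makeup in these values was not tested.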

How the results depend on the processing

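No paired analysis was possible because the genotypes share no replicate number. With limma, 0 members were called higher and 0 lower at thresholds of 0.05, 0.10 and 0.01. The same held under both other pseudocounts, without a minimum level, at a minimum of 5 FPKM, under each scaling and with robust moderation. It also held with each library left out. In these settings 0% to 0.633% of all genes were called, the highest share being that at the threshold of 0.10. With library weights, 6 members were called higher (MYB28, SOT17, SOT18, SUR1, FMO GS-OX5 and GTR2) and 1 lower (GSTU20), where 13.1% of all genes were called in either direction, and the median log2 fold change of the tested members was 0.34. Without a minimum level, that median was 0.19 over 36 members, 12 of them low. With each library left out it was 0.38 to 0.57, and 7 to 12 members (of all genes, 4.76% to 8.28%) were higher and 0 or 1 (of all genes, 3.28% to 7.07%) lower at an unadjusted p under 0.05. With the mean of AG, AP3 and PI as a covariate, a term chosen after seeing the data, 10 were called higher (MYB28, MYB34, SOT17, SOT18, SUR1, UGT74B1, CYP79B2, CYP83B1, FMO GS-OX2 and GTR2), against 2.16% of all genes in either direction. With the xylem and stem mean as a covariate, also chosen afterwards, 1 was called higher (CYP83B1, log2 fold change 1.79), against 0.265% of all genes in either direction. With the touch and early stress mean as a covariate, or without wild type replicates 1 and 2, 0 were called, but so were 0 of all 17706 and 17635 genes tested. IIL1 turned to -0.0235 with the xylem and stem covariate and ranged from -0.0066 to 0.0691 with each library left out. SOT16 turned to -0.15 with library weights and ranged from -0.0455 to 0.32 with each library left out. The cause of these shifts was not tested. Depth is unknown, so the 12 members under 1 FPKM could not be given a counting error, and 4 libraries per genotype set the width of every interval.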
